A study of Mus musculus with 68 samples.

Results

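A single colon tumour from an Apc-wildtype, Cftr-knockout mouse was compared with normal colon of the same genotype. The members were chosen by specimen: 4 expression columns of the tumour and 8 columns of 2 knockout colon specimens, together 12 of the 68 columns in the series. The study asked which genes and pathways go with Cftr deficiency in intestinal tissue of Apc-wildtype and ApcMin mice. RNA was sequenced from polyA-selected libraries, and expression was given as FPKM, which scales fragments to transcript length and library size. Each specimen compared here was read in 2 sequencing runs on 2 lanes per run. Columns of 1 specimen were averaged on the log2(FPKM + 1) scale, so that the comparison had 1 tumour and 2 colon specimens.

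All specimens used here were labelled C57BL/6 and 3 months old. The tumour and both knockout colon specimens were labelled CFTR knockout and Apc+CFTR-. The wildtype colon specimens, 2 in number, were labelled CFTR wildtype and Apc+CFTR+. The ApcMin colon tumours were labelled CFTR knockout and Apc-CFTR-, with no allele named. The protocol, which was the same for all samples, named Apc+/+ mice of 2 kinds. One carried Cftr+/+, and the other was Cftrfl/fl-Villin-Cre, in which Villin directs Cre to the intestinal epithelium. Colon was labelled as whole tissue, whereas the series' design named epithelial cells. The tumour carried the same animal number as 1 of 2 duodenal tumours. The knockout colon specimens carried numbers that also appear on duodenum, and neither carried the tumour's number. Tumour state and animal therefore cannot be told apart. The labels hold 10 animal numbers over 23 specimens, whereas the series' design speaks of 23 mice, so that equal numbers are read here as the same animal with that conflict unresolved. An exact permutation test of 1 specimen against 2 cannot go below p = 0.333, so the tests below take the spread from all 12 groups of the series and assume that the tumour varies like them. These also include wildtype and knockout duodenum, knockout duodenal tumours and ApcMin tumours of colon, duodenum or ileum labelled Cftr wildtype, knockdown (CFTRhet) or knockout. In each of the 6 ApcMin groups both tumours share 1 animal number, so 6 of the 10 residual degrees of freedom are spread within a number, while tumour and colon differ in number.

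Cftr encodes a chloride and bicarbonate channel in the apical membrane of intestinal epithelium, where it hydrates and alkalinises the mucus. Apc belongs to the complex that marks beta-catenin for degradation, and its loss in the intestine switches on Wnt target genes and starts adenomas. Growth of a colon tumour usually goes with loss of the absorptive and mucus-secreting programme of colonocytes and goblet cells, with inflammatory cells, and with remodelling of the matrix by metalloproteinases.

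The targeted gene did not separate knockout from wildtype colon. Cftr (chr6:18170687-18322768, plus strand, mm10) was at 11.4 and 11.1 FPKM in runs 1 and 2 of the tumour. Knockout colon 1 and 2 held 30.5 and 25.9 FPKM, and wildtype colon 1 and 2 held 22.2 and 21.7 FPKM. The values are per gene, so they do not check whether an exon was removed, and the specimens are called knockout after their labels. The tumour lay below all 4 normal specimens, with a log2 difference of -1.25 (SE 0.42) from knockout colon and a limma adjusted p of 0.0645. With a replicate block on the animal number the adjusted p was 0.0485. Apc was at 10.9 and 11.7 FPKM in the tumour against 14.3 and 13.3 FPKM in knockout colon (log2 difference -0.27, SE 0.17, adjusted p = 0.305). Relative depth of the 12 columns differed by 1.13-fold, and their FPKM summed to between 497707 and 612385.

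The tumour's run 1 library held small-intestinal transcripts that its run 2 library held much less of. Of 57 genes at 100 FPKM or more in both knockout duodenum specimens and at 5 FPKM or less in both knockout colon specimens, 57 were higher in run 1. Their median was 5.21 FPKM in run 1 and 1.11 FPKM in run 2. Each gene's level was also expressed as a percentage of that in the same run of the duodenal tumour with the same animal number. The median of these percentages was 2.93% in run 1 and 0.517% in run 2. Over all 12964 genes at 1 FPKM or more, the SD of the run 1 minus run 2 difference was 0.19 on the log2 scale. Of 5 erythroid genes, 2 were higher by 0.5 or more in run 1 and 2 in run 2. For this reason both runs are printed for the tumour, and counts are also given without the run 1 libraries of the tumour and of wildtype colon 2, whose runs differed most among the specimens read in both (SD 0.40).

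**Figure D1:**
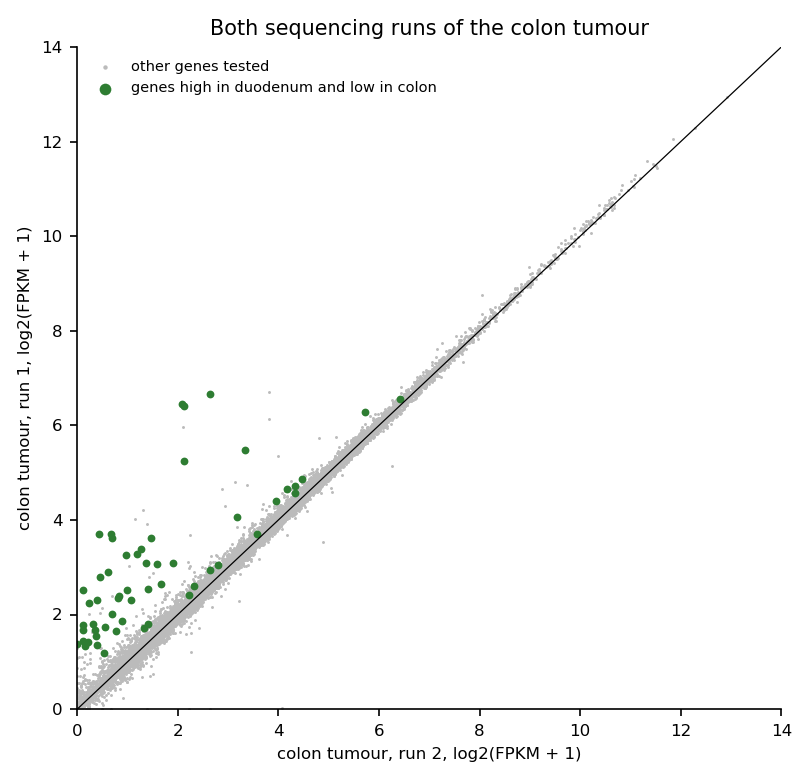
Each point is a gene, placed by its log2(FPKM + 1) in run 2 (horizontal) and run 1 (vertical) of the colon tumour, and green points are the 57 genes that were high in duodenum and low in colon. The green points lie above the line of equal values, with medians of 5.21 and 1.11 FPKM in runs 1 and 2, whereas grey points follow the line.

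Differential expression analysis called 1820 of 14098 tested genes between tumour and knockout colon (12.9%), at a limma adjusted p under 0.05. Of these, 1014 were higher in the tumour (7.19%) and 806 were lower (5.72%). The tumour lay outside both knockout colon specimens in each run for all 1820. It also lay above both wildtype colon specimens for 1009 of the 1014 higher genes and below both for 806 of the 806 lower genes. Changes of 4-fold or more were found for 176 higher and 70 lower genes. Lying outside the colon specimens is no separate support for the calls, which rest on the same tumour and knockout colon values. Its share over all tested genes is not given here. The median change over all tested genes was close to 0, at -0.0046 on the log2 scale. The counts depended on each colon specimen: 773 genes were called without knockout colon 1 and 719 without knockout colon 2. With the spread taken from Apc-wildtype specimens alone, whose replicates carry separate animal numbers, 3242 genes were called. Without the doubted run 1 libraries the count was 1899. A core of 356 genes, 292 higher and 64 lower, was called in each of the 15 settings tried.

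The 15 largest rises were led by secreted proteins of inflammation and matrix turnover. Spp1 (osteopontin, a secreted phosphoprotein, chr5:104435118-104441050) was at 154 and 150 FPKM in the tumour and at 0.341 and 0.614 FPKM in knockout colon, a log2 difference of 6.71 (SE 0.89, adjusted p = 0.000864). Mmp7 (matrilysin) reached 232 and 216 FPKM against 1.85 and 0.665 FPKM (6.70, SE 0.76, adjusted p = 0.000286). Both tumour runs lay more than an order of magnitude above either colon specimen for both genes. Hp, which encodes haptoglobin, a plasma haemoglobin scavenger, was at 229 and 231 FPKM against 1.47 and 1.87 FPKM (6.46, SE 0.55, adjusted p = 4.83e-05). Saa3, an acute-phase serum amyloid, was at 251 and 242 FPKM against 3.44 and 4.13 FPKM (5.71, SE 0.41, adjusted p = 2.26e-05). Aldh1a3, a retinaldehyde dehydrogenase, was at 128 and 126 FPKM against 1.57 and 1.56 FPKM (5.64, SE 0.62, adjusted p = 0.000225). Wfdc18, a small secreted protease-inhibitor-like protein, was at 442 and 439 FPKM against 8.81 and 9.07 FPKM (5.50, SE 0.89, adjusted p = 0.00269). The others were S100a8, S100a9, Mmp10, Mmp13, Cxcl5, Lyz1, the defensin genes Gm21002 and Defa24, and AI747448, a calcium-activated chloride channel regulator now named Clca4b. AI747448, the defensins and Lyz1 belong to families of near-identical copies, so their share of the reads is uncertain. Exons of Spp1 and Mmp7 overlap other transcripts in the annotation (Gm42793 and AV064505), and no source gives the strand used in counting. Of the 15 rises, 13 stayed called without knockout colon 1 and 13 without knockout colon 2. Gm21002 and Defa24 lost the call in both cases, with adjusted p between 0.0838 and 0.107.

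The 15 largest falls included absorptive, mucus and hormone genes of the colon. Slc9a3 (NHE3, the apical sodium-hydrogen exchanger, chr13:74121457-74169442) was at 10.5 and 10.9 FPKM in the tumour and at 151 and 245 FPKM in knockout colon, a log2 difference of -4.05 (SE 0.79, adjusted p = 0.00767). B4galnt2, a glycosyltransferase of mucin and surface glycans, was at 10.2 and 8.19 FPKM against 185 and 177 FPKM (-4.16, SE 0.77, adjusted p = 0.00596). Slc3a1, part of the cystine and dibasic amino acid transporter, was at 2.42 and 1.45 FPKM against 36 and 30.9 FPKM (-3.57, SE 0.69, adjusted p = 0.00766). These 3 falls were called in every setting. Cdx2, the transcription factor that specifies intestinal epithelium (chr5:147300805-147307270), was at 12.3 and 12.2 FPKM against 141 and 97.6 FPKM (-3.16, SE 0.86, adjusted p = 0.0331). Clca3, the goblet cell secretory product now named Clca1, was at 212 and 218 FPKM against 3554 and 3486 FPKM (-4.03, SE 1.01, adjusted p = 0.0248). Fabp2 differed between the runs of the tumour (69.6 and 13 FPKM), and both values lay below the 1047 and 422 FPKM of knockout colon (-4.40, SE 0.97, adjusted p = 0.0137). The others were Apol10a (-4.97, the largest fall), Dpep1, Hsd3b3, Insl5, Gcg, Btnl1, Cyp2d9, Gm1123 and Igf2bp2. Hsd3b3 and Cyp2d9 have near-identical copies, and exons of B4galnt2 overlap Gm11534. Without knockout colon 1 the call was lost for 10 of the 15 falls, with adjusted p between 0.0508 and 0.118, and without knockout colon 2 for 7, with adjusted p between 0.0571 and 0.106.

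**Figure D2:**
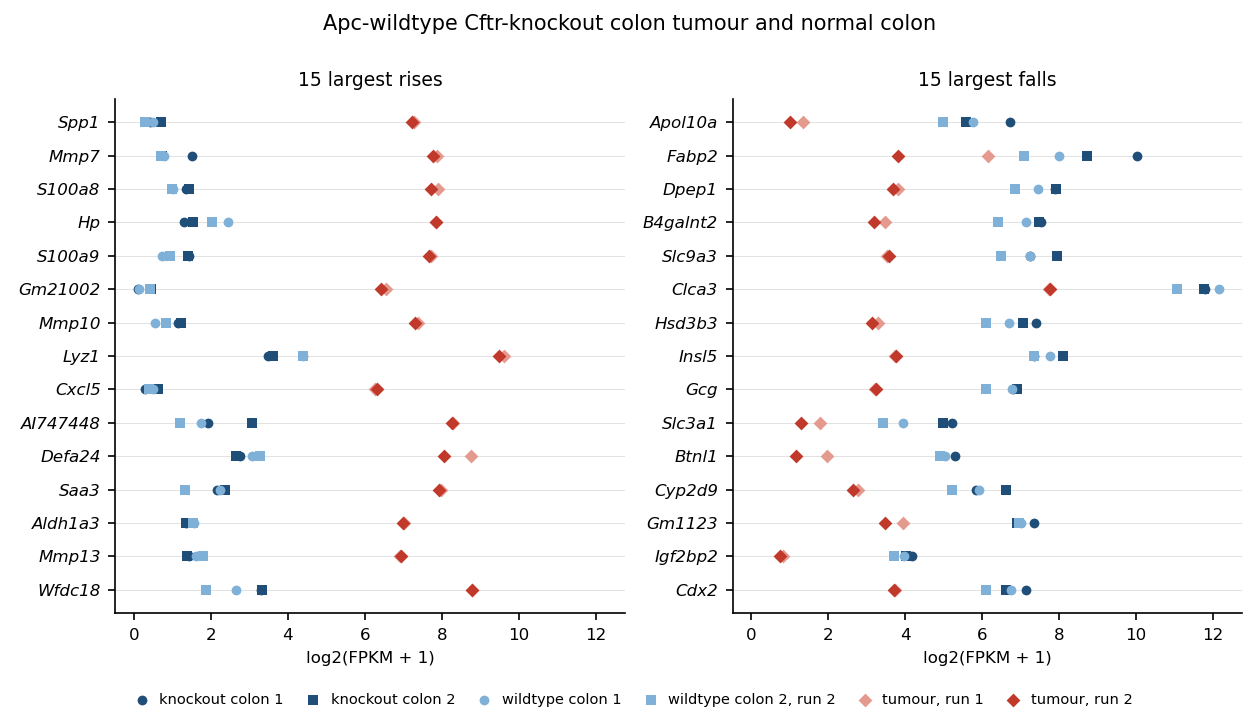
Expression as log2(FPKM + 1) of the 15 largest rises (left) and falls (right), with red diamonds for the 2 runs of the tumour, dark blue for the 2 knockout colon specimens and light blue for the 2 wildtype colon specimens (run 2 alone for wildtype colon 2). The genes were chosen with the tumour outside both knockout colon specimens, and it also lies apart from both wildtype specimens for each gene. Its runs differ visibly for Fabp2 (69.6 and 13 FPKM).

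Matrix metalloproteinases cut collagen and other matrix proteins, and the tissue inhibitors named Timp block them. Of 20 tested genes of this list, 13 rose (65.0%, against 7.19% of all genes) and none fell, with a median log2 change of 2.01. Called genes without knockout colon 1 and without knockout colon 2 numbered 11 each. The stromelysins Mmp10 and Mmp3 and the collagenase Mmp13 lie in 1 cluster on chromosome 9. Their promoters are shown because each holds the letters TGANTCA, the AP-1 motif, within 250 bases before the gene's start. The capitals mark the motif in these 120-base stretches of RefSeq sequence (GRCm38.p6, plus strand), at chr9:7502222-7502341 for Mmp10, chr9:7272394-7272513 for Mmp13 and chr9:7445702-7445821 for Mmp3.
Mmp10: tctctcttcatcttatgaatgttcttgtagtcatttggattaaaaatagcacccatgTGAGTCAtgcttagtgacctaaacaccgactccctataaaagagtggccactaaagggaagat
Mmp13: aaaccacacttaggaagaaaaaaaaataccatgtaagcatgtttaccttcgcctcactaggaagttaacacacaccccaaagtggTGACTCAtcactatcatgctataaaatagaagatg
Mmp3: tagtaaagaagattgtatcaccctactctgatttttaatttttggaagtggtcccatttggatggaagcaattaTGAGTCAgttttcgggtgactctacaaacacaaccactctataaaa

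The motif was found before 5 of the 8 called genes of this list that matched the promoter table (62.5%): Mmp3, Mmp7, Mmp10, Mmp12 and Mmp13. Of all 27025 genes in the table, 7.82% held it on either strand. The motif was chosen after the values had been seen, a match is a description of letters, and the 5 genes are neighbours of 1 family.

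Mmp10 was at 167 and 158 FPKM in the tumour and at 1.21 and 1.33 FPKM in knockout colon (6.18, SE 0.53, adjusted p = 4.84e-05). Mmp13 was at 119 and 121 FPKM against 1.7 and 1.61 FPKM (5.52, SE 0.61, adjusted p = 0.000225). Timp1 was at 32.7 and 31.1 FPKM against 2.7 and 2.94 FPKM (3.11, SE 0.27, adjusted p = 4.84e-05). Protease and inhibitor were thus both raised in both runs. The gelatinase Mmp2 rose less, from 27.1 and 21.1 FPKM to 90 and 90.7 FPKM (1.88, SE 0.21, adjusted p = 0.000225). Serpine2, an inhibitor of plasminogen activators, rose by 2.36 on the log2 scale, and Plat, which encodes tissue plasminogen activator, rose by 2.15.

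Neutrophil genes were close to absent from colon and readily measured in the tumour. Of 13 tested genes, 9 rose (69.2%) and none fell, the median change was 2.64, and 9 were called with either colon specimen left out. Their summed expression was 556 and 517 FPKM in the tumour's runs against 10.2 and 8.79 FPKM in knockout colon and 6.64 and 6.59 FPKM in wildtype colon. More cells of a type and more RNA per cell cannot be told apart in bulk tissue. S100a8 and S100a9, neighbours on chromosome 3 that together form calprotectin, were at 236 and 211 FPKM and at 210 and 201 FPKM in the tumour. Neither passed 1.67 FPKM in knockout colon, and the log2 differences were 6.47 (SE 0.83, adjusted p = 0.000722) and 6.31 (SE 0.76, adjusted p = 0.000511). Receptors of the lineage also rose: Csf3r, the G-CSF receptor, from 0.68 and 0.763 FPKM to 9.74 and 9.7 FPKM, and Cxcr2, the receptor for the chemokines below, from 0.112 and 0.151 FPKM to 5.1 and 5.27 FPKM. Il1r2, a decoy receptor for interleukin 1, was at 10.2 and 9.16 FPKM against 0.56 and 0.768 FPKM.

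Of 32 tested cytokine and chemokine genes, 20 rose (62.5%) and none fell, with a median change of 1.76. The CXC chemokines that attract neutrophils lie together on chromosome 5, and the promoters of Cxcl1 and Cxcl2 are shown for a kappaB motif, read on either strand as GGG, any 3 bases and TTCC. Capitals mark the motif, where overlapping matches run together, at chr5:90891125-90891244 for Cxcl1 and chr5:90903779-90903898 for Cxcl2 (RefSeq, GRCm38.p6, plus strand).
Cxcl1: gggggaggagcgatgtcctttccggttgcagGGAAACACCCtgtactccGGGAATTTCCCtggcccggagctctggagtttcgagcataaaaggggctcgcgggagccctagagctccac
Cxcl2: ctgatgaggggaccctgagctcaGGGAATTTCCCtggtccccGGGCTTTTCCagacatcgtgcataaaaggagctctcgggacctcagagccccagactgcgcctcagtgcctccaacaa

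The kappaB letters were found before 4 of 13 matched genes of the called cytokines (30.8%), Il6, Cxcl1, Cxcl2 and Cxcl3, against 5.31% of all genes in the table. This spelling was chosen after a shorter one, with 2 free bases in place of 3, had been found before 0 of the 13 genes, against 5.61% of all genes. In all, 4 spellings were searched in 3 sets of called genes. The AP-1 letters were found before 4 of the 13 cytokine genes and 2 of 9 matched Wnt genes (22.2%). The sets overlap: the Wnt genes with these letters were Il11, also counted among the cytokines, and Mmp7, also counted among the metalloproteinases. The TCF/LEF letters CTTTGNT were found before 2 of the 9 matched Wnt genes (22.2%), near the 18.1% of all genes. They were also found before 2 of the 8 metalloproteinase and inhibitor genes and 4 of the 13 cytokine genes. Mmp7 was counted here in both the Wnt and the metalloproteinase set. The kappaB letters were found before none of the metalloproteinase or Wnt genes, and the shorter spelling before 1 Wnt gene.

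Cxcl1 was at 24.4 and 19.5 FPKM in the tumour and at 0.412 and 0.954 FPKM in knockout colon (3.79, SE 0.64, adjusted p = 0.0036). Cxcl2 was at 21.5 and 21.1 FPKM against 0.065 and 0.32 FPKM (4.24, SE 0.82, adjusted p = 0.00738). Cxcl5 was the most abundant of the group, at 75.7 and 78 FPKM against 0.221 and 0.539 FPKM (5.83, SE 0.76, adjusted p = 0.000804). All 3 lay far above both colon specimens in each run. Cxcl14, a chemokine of epithelium and stroma, was present in colon at 5.56 and 7.72 FPKM and reached 74.7 and 76.4 FPKM in the tumour (3.35, SE 0.30, adjusted p = 4.97e-05). Among monocyte attractants, Ccl2 rose from 1.81 and 2.31 FPKM to 22.8 and 22.8 FPKM, and Ccl7 from 1.8 and 2.02 FPKM to 18.5 and 18.9 FPKM. The interleukins Il1b, Il1a, Il6, Il17a, Il23a and Il11 were also called higher. Il1b was at 81.5 and 78.3 FPKM against 1.44 and 3.77 FPKM (4.57, SE 0.81, adjusted p = 0.00445). Il17a was low everywhere, at 1.97 and 1.07 FPKM in the tumour and listed at 0 in both knockout colon specimens.

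Acute-phase and inflammatory enzyme genes gave 12 rises among 19 tested (63.2%) and no fall, with a median change of 1.91, and 1 fall with a replicate block. Lrg1, a leucine-rich acute-phase glycoprotein, was at 113 and 116 FPKM against 2.33 and 3.01 FPKM (4.99, SE 0.51, adjusted p = 0.000156). Lcn2, the siderophore-binding lipocalin, was at 55 and 56.2 FPKM against 1.77 and 3.27 FPKM (4.04, SE 0.68, adjusted p = 0.00326). Ptgs2, the inducible cyclooxygenase, rose from 3 and 1.51 FPKM to 12.9 and 13.2 FPKM. Saa1 went the other way and was not called: it was at 630 and 580 FPKM in the tumour and at 1329 and 3808 FPKM in knockout colon (adjusted p = 0.409). With Saa1 among its most abundant members, the list summed to 2926 and 2854 FPKM in the tumour's runs against 2731 and 5617 FPKM in knockout colon 1 and 2.

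Macrophage genes rose more modestly than neutrophil genes. Of 17 tested genes, 11 rose (64.7%) and 1 fell (5.88%, near the 5.72% of all genes), with a median change of 0.85. Without knockout colon 1 the count of rises was 4, and without knockout colon 2 it was 8. Arg1, the arginase of alternatively activated myeloid cells, stood out at 48.7 and 44.8 FPKM in the tumour against 0.473 and 0.265 FPKM in knockout colon (5.14, SE 0.48, adjusted p = 7.4e-05). Itgam, the integrin chain CD11b, rose from 3.52 and 3.28 FPKM to 10.6 and 10.8 FPKM (1.41, SE 0.25, adjusted p = 0.00525). C1qc, a complement chain made by tissue macrophages, rose from 34.2 and 46.7 FPKM to 74.2 and 71.4 FPKM (0.85, SE 0.20, adjusted p = 0.0172). The exception was Ly6c2, a marker of inflammatory monocytes, at 13.1 and 11.7 FPKM against 20.1 and 27.1 FPKM (-0.86, SE 0.26, adjusted p = 0.0494), and the list had no fall with either colon specimen left out. No gene was called among 17 T cell, 13 B and plasma cell and 10 MHC class II genes, with median changes of 0.33, 1.35 and 0.55. With a replicate block the T cell gene Il7r was called higher (adjusted p = 0.045). Of 9 mast cell genes 1 was called lower (11.1%, against 5.72% of all genes). It was Kit, which interstitial cells of Cajal also express, at 7.11 and 7.74 FPKM against 25 and 16.4 FPKM. Kit was not called without knockout colon 1.

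Interferon-stimulated genes went against the rest of the inflammatory genes. Of 22 tested, none rose and 9 fell (40.9%, against 5.72% of all genes), with a median change of -0.57. Oas3, an antiviral oligoadenylate synthetase, was at 0.583 and 0.492 FPKM in the tumour and at 3.52 and 3.87 FPKM in knockout colon (-1.61, SE 0.38, adjusted p = 0.0183). Rsad2 (viperin) was at 0.507 and 0.621 FPKM against 2.22 and 3.87 FPKM (-1.34, SE 0.27, adjusted p = 0.00816). Oasl2 differed between the colon specimens, at 10.7 and 26.9 FPKM, and lay below both in the tumour at 3.83 and 3.5 FPKM (-1.95, SE 0.49, adjusted p = 0.0241). The others were Oas1a, Oas2, Isg15, Ifit1, Mx1 and Stat2. This count rested on the colon specimens, with 6 falls without knockout colon 1 and 1 without knockout colon 2.

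Stromal genes rose broadly. Of 25 fibroblast and matrix genes, 17 rose (68.0%) and none fell, with a median change of 1.32, and 15 and 10 rises were found without knockout colon 1 and 2. Thy1, a surface protein of fibroblasts, was at 20.8 and 22.9 FPKM in the tumour against 6.15 and 6.16 FPKM in knockout colon (1.68, SE 0.21, adjusted p = 0.000625). Dcn (decorin) was at 399 and 382 FPKM against 120 and 111 FPKM (1.75, SE 0.32, adjusted p = 0.00566). Col1a1, a chain of type I collagen, was at 130 and 146 FPKM against 43.6 and 35.1 FPKM (1.79, SE 0.40, adjusted p = 0.0149). Levels of the 3 genes were thus about as far apart in 1 run as in the other. Of 11 endothelial genes 7 rose (63.6%), among them Tie1, from 3.54 and 3.25 FPKM to 7.04 and 7.04 FPKM, and 5 and 4 rose without knockout colon 1 and 2.

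Muscle, nerve and fat genes lay lower or did not pass the test. All 14 smooth muscle genes were lower in the tumour, with a median of -0.99, but only Smtn (smoothelin) was called, at 20.6 and 20.7 FPKM against 46.9 and 36.5 FPKM (-0.97, SE 0.29, adjusted p = 0.0458). The list summed to 1417 and 1434 FPKM in the tumour and to 3318 and 2625 FPKM in knockout colon. Of 14 neural genes 2 were called, both lower, among them Chrna3, a nicotinic receptor subunit, at 0.599 and 0.507 FPKM against 1.85 and 1.32 FPKM (-0.73, SE 0.21, adjusted p = 0.04). Neither the neural genes nor Smtn stayed called with either colon specimen left out. Called lower were 7.14% of the smooth muscle genes, near the 5.72% of all genes, and 14.3% of the neural genes. None of 8 adipocyte genes was called. Pan-epithelial genes summed to 7114 and 7276 FPKM in the tumour against 8897 and 9551 FPKM in knockout colon, and Epcam differed little, at 687 and 713 FPKM against 759 and 791 FPKM (adjusted p = 0.64). Wildtype colon 1 and 2 summed to 7525 and 6710 FPKM for the pan-epithelial genes, and both tumour runs lay between these values. The summed levels of muscle and stromal markers thus moved with the groups, whereas those of epithelial markers were lower only against knockout colon. Their part in the other differences was not tested.

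Wnt signalling in the crypt raises some of its own inhibitors. The list of feedback inhibitors used here holds secreted and other Wnt antagonists, and whether Wnt signalling raised them was not tested. Of 14 tested feedback inhibitors, 6 rose (42.9%) and none fell, with a median change of 1.30 and all 14 positive. Sfrp1, a secreted Wnt antagonist, was at 48.8 and 50.3 FPKM in the tumour against 9.58 and 8.83 FPKM in knockout colon (2.31, SE 0.31, adjusted p = 0.000933). Wif1, which binds Wnt ligands, was at 24.8 and 24.3 FPKM against 0.811 and 0.977 FPKM (3.76, SE 0.75, adjusted p = 0.00845). Dkk2, Apcdd1, Sfrp2 and Rnf43 also rose. Notum, a Wnt deacylase, and Axin2, the usual reporter of beta-catenin activity, were not called. Notum was at 12.6 and 10.5 FPKM against 0.248 and 0.257 FPKM (3.32, SE 1.23, adjusted p = 0.0892), and Axin2 was at 22.2 and 21.5 FPKM against 10.2 and 8.88 FPKM (1.12, SE 0.51, adjusted p = 0.157).

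Of 20 genes of the Wnt target list, 7 rose (35.0%) and none fell, with a median of 1.06. Sp5, a direct target that encodes a transcription factor, was at 5.59 and 5.69 FPKM against 0.149 and 0.069 FPKM (2.58, SE 0.40, adjusted p = 0.00206). Il11 was at 18.3 and 15.5 FPKM against 0.108 and 0.161 FPKM, and Mmp7, given above, belongs to the same list. Ccnd1, Sox4, Cd44 and Myc rose by between 0.93 and 1.77 on the log2 scale. Fewer rises were found with a colon specimen left out: 3 and 2 feedback inhibitors, and 4 and 3 targets, without knockout colon 1 and 2. With a replicate block on the animal number 10 targets rose.

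Crypt stem cell genes gave no common direction. Among 17 tested, Smoc2 and Bmi1 rose (11.8%, against 7.19% of all genes) and Rgmb and Aqp4 fell (11.8%, against 5.72%). None of the 4 calls held with either colon specimen left out. Lgr5, the R-spondin receptor of crypt base stem cells, was at 9.7 and 10 FPKM against 1.27 and 1.34 FPKM (2.24, SE 0.73, adjusted p = 0.0601), and with a replicate block its adjusted p was 0.0452 and 4 genes of the list rose. None of 22 cell cycle genes was called, with a median of 0.09. Mki67, the proliferation antigen, was at 16.2 and 17.9 FPKM in the tumour and at 20.1 and 18.3 FPKM in knockout colon.

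Genes of regenerating and fetal-like epithelium, which the gut expresses after injury, rose together: 15 of 22 were higher (68.2%) and none was lower, with a median of 1.72 and all 22 positive. Without knockout colon 1 and 2 there were 11 and 10 rises. Anxa1, a phospholipid-binding annexin, was at 519 and 508 FPKM in the tumour against 146 and 139 FPKM in knockout colon (1.84, SE 0.22, adjusted p = 0.000484). Anxa8 was at 263 and 264 FPKM against 30.6 and 19 FPKM (3.40, SE 0.44, adjusted p = 0.000805). Clu (clusterin) had high values in the tumour, 309 and 305 FPKM against 16.7 and 32.4 FPKM, but an adjusted p of 0.0514. Of 6 squamous genes that passed the filter on low values, the keratins Krt13 and Krt14 rose (33.3%, against 7.19% of all genes). Krt14 rose from 0.374 and 0.307 FPKM to 26.7 and 24.2 FPKM. The other 6 of that list, Krt5, Trp63, Lor, Dsg3, Krt1 and Krtdap, did not pass the filter. Of 15 EGF family genes 2 rose (13.3%, against 7.19% of all genes), the ligands Nrg1 and Ereg, which were not called without knockout colon 2. Of 17 immediate early genes 1 rose (5.88%), near the share of all genes. It was Ier3, from 12.4 and 9.51 FPKM to 67.3 and 60.2 FPKM, and with a replicate block Klf6 was lower (adjusted p = 0.0417).

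**Figure D3:**
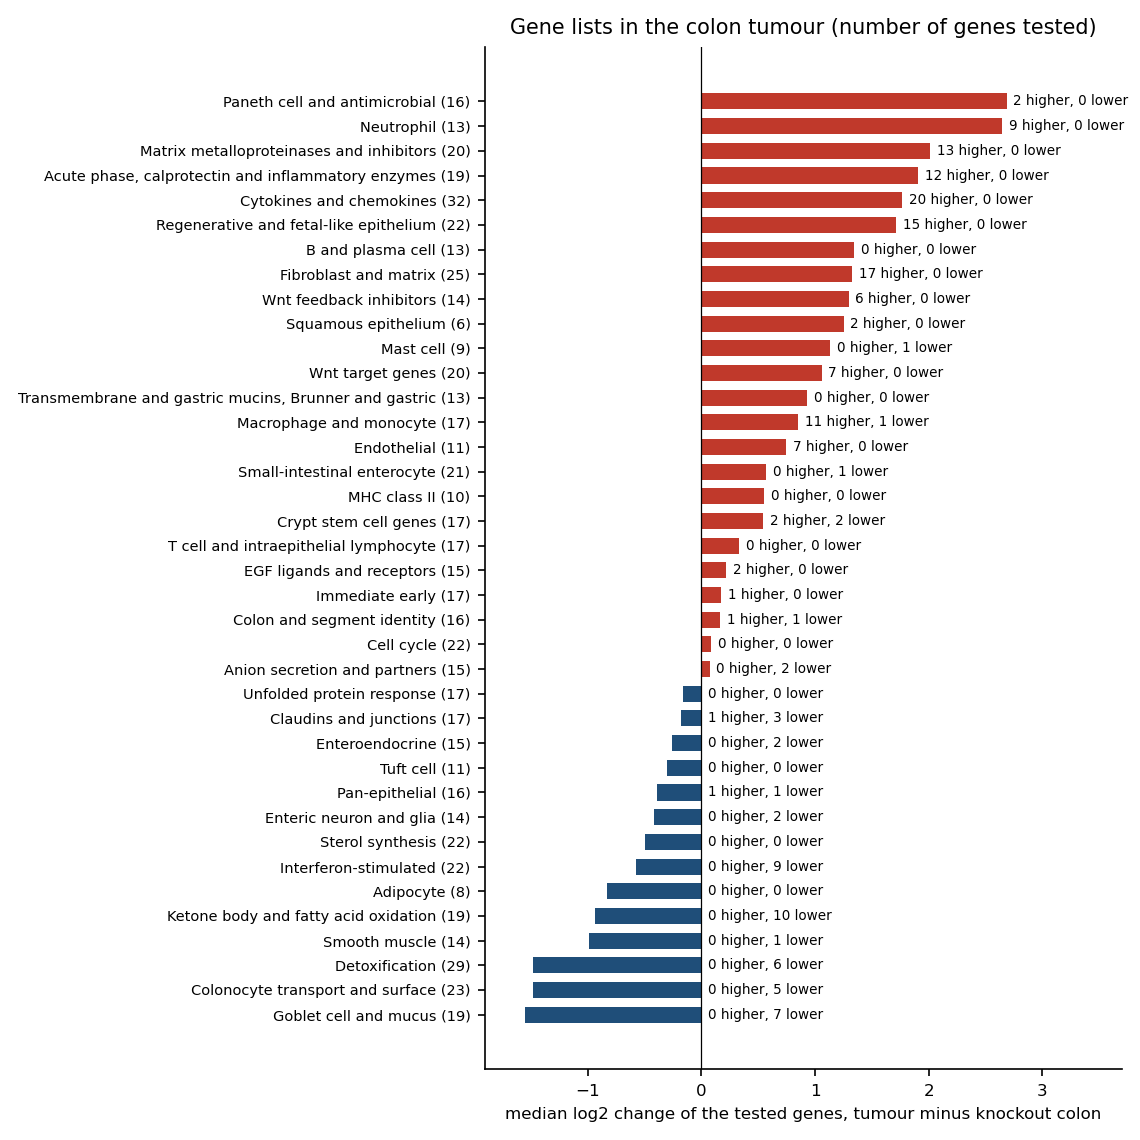
Median log2 change between tumour and knockout colon for 38 gene lists, with the number of genes called higher and lower beside each. Neutrophil (2.64) and metalloproteinase genes (2.01) lie far to the right with many calls, whereas goblet (-1.55), colonocyte (-1.48) and detoxification genes (-1.48) lie to the left.

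Absorptive genes of the colonocyte lay lower in the tumour, with 5 of 23 called lower (21.7%), none higher, and a median of -1.48. Slc16a1, the butyrate and lactate transporter, was at 42.2 and 47.8 FPKM in the tumour against 133 and 118 FPKM in knockout colon (-1.46, SE 0.30, adjusted p = 0.0102). Scnn1a, a subunit of the epithelial sodium channel, was at 19.4 and 20.9 FPKM against 51.9 and 63.8 FPKM (-1.47, SE 0.34, adjusted p = 0.0183). Some of the widest differences did not pass the test. Slc26a3, the chloride-bicarbonate exchanger, was at 65.6 FPKM in both runs against 566 and 812 FPKM (-3.35, SE 1.06, adjusted p = 0.0557). Aqp8 was at 83.2 and 83.5 FPKM against 845 and 1237 FPKM (adjusted p = 0.0729). With a replicate block 10 genes of the list were lower, and without knockout colon 1 and 2 the count was 3 and 2. Among 15 genes of anion secretion, 2 were lower (13.3%, against 5.72% of all genes). They were Slc9a3r1 (NHERF1, which tethers Cftr at the membrane) and Gucy2c (the guanylin receptor), with log2 differences of -1.92 and -0.91. Neither was called with either colon specimen left out.

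Goblet cell genes gave 7 falls among 19 tested (36.8%) and no rise, with a median of -1.55. Zg16, a lectin of the mucus layer, was at 977 and 952 FPKM in the tumour against 8600 and 8301 FPKM in knockout colon (-3.13, SE 0.67, adjusted p = 0.0117). Fcgbp, a mucus-binding protein, was at 129 and 150 FPKM against 787 and 700 FPKM (-2.40, SE 0.49, adjusted p = 0.00902). Atoh1, the transcription factor that commits cells to the secretory lineage, was at 15.6 and 15 FPKM against 44.2 and 50.4 FPKM (-1.56, SE 0.37, adjusted p = 0.0191). Muc2, the gel-forming mucin itself, was at 150 and 164 FPKM against 675 and 316 FPKM and was not called (-1.55, SE 0.84, adjusted p = 0.226). The falls numbered 2 without knockout colon 1 and 3 without knockout colon 2.

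Among 15 enteroendocrine genes the peptide hormones Insl5 and Gcg fell (13.3%, against 5.72% of all genes). Gcg was not called with either colon specimen left out, and Insl5 was not called without knockout colon 2. Insl5, a hormone of colonic L cells, was at 12.4 and 12.5 FPKM against 163 and 274 FPKM (-3.99, SE 0.93, adjusted p = 0.0176). Gcg, the precursor of glucagon-like peptides in the same cells, fell by 3.62 on the log2 scale (SE 1.01, adjusted p = 0.0357). None of 11 tuft cell genes was called. With a replicate block Cck, Sst and, among tuft cell genes, Trpm5 were also called lower, at adjusted p of 0.0453, 0.0492 and 0.0351.

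Of 17 claudin and junction genes, 1 rose (5.88%, against 7.19% of all genes) and 3 fell (17.6%, against 5.72%), with a median of -0.18. Cldn4 rose from 47.5 and 38.6 FPKM to 161 and 156 FPKM (1.87, SE 0.42, adjusted p = 0.0156). Cldn15, which forms cation pores, fell from 150 and 119 FPKM to 22.9 and 18.4 FPKM (-2.64, SE 0.63, adjusted p = 0.0191), and Ocln and Cldn23 also fell. None of the 3 falls was called with either colon specimen left out, and Cldn4 was not called without knockout colon 2.

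Metabolic genes of the mature epithelium fell. Of 19 genes of ketone body formation and fatty acid oxidation, 10 fell (52.6%) and none rose, with a median of -0.93. Cpt2, the inner carnitine palmitoyltransferase, was at 29.3 and 30 FPKM in the tumour against 51.1 and 56.2 FPKM in knockout colon (-0.83, SE 0.19, adjusted p = 0.0162). Pdk4, which restrains pyruvate oxidation, was at 0.991 and 0.992 FPKM against 11.6 and 9.24 FPKM (-2.52, SE 0.61, adjusted p = 0.0207). The falls numbered 1 without knockout colon 1 and 0 without knockout colon 2.

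Of 29 detoxification genes, 6 fell (20.7%) and none rose, with a median of -1.48. Ugt2b34, a glucuronosyltransferase, was at 78.6 and 74.3 FPKM against 240 and 274 FPKM (-1.73, SE 0.29, adjusted p = 0.00323). Maoa, a monoamine oxidase, was at 60.2 and 56.9 FPKM against 307 and 322 FPKM (-2.41, SE 0.57, adjusted p = 0.0196). The count was 1 with either colon specimen left out and 10 with a replicate block. No gene was called among 22 of sterol synthesis, of which 21 were lower than in knockout colon, or among 17 of the unfolded protein response. The sterol genes summed to 883 and 902 FPKM in the tumour's runs, against 1355 and 1240 FPKM in knockout colon. Wildtype colon held 946 and 693 FPKM, so both tumour runs lay between the wildtype specimens.

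Position along the gut is set in part by Cdx2 and by the Hox genes. Cdx2 fell, as given above, and Hoxd12 (chr2:74675013-74677705) rose from 0.0483 and 0.152 FPKM to 7.53 and 7.07 FPKM (2.91, SE 0.87, adjusted p = 0.0449). Its neighbours in the cluster were high in the tumour without being called. Hoxd13, the most posterior, was at 78.7 and 80.4 FPKM against 0.893 and 4.03 FPKM (adjusted p = 0.102). Hoxd10 was at 8.63 and 9.38 FPKM against 0.149 and 0.487 FPKM (adjusted p = 0.064, and 0.0424 with a replicate block). The 2 ApcMin knockout colon tumours, which share an animal number, held 99 and 4.62 FPKM of Hoxd13. Neither Hoxd12 nor Cdx2 was called with either colon specimen left out.

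Paneth cells, the antimicrobial cells of small-intestinal crypts, are not a normal cell type of the colon. Of 16 tested Paneth and antimicrobial genes, 2 rose (12.5%, against 7.19% of all genes), Lyz1 and Defa24, with a list median of 2.68. Lyz1, the Paneth cell lysozyme, was at 780 and 717 FPKM in the tumour against 10.1 and 11.2 FPKM in knockout colon (6.03, SE 0.96, adjusted p = 0.00242). Reg3b, a bactericidal lectin that enterocytes also make, was at 1594 and 1536 FPKM against 41.8 and 34.6 FPKM and was not called (5.33, SE 1.88, adjusted p = 0.0759). Defa24 differed between the runs, at 429 and 264 FPKM against 5.8 and 5.24 FPKM, and 5 of the 16 genes were higher by 0.5 or more on the log2 scale in run 1. Without the doubted run 1 libraries 4 of the list rose, and 1 rose with either colon specimen left out.

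Small-intestinal enterocyte genes summed to 648 FPKM in run 1 and to 152 FPKM in run 2 of the tumour, against 1268 and 715 FPKM in knockout colon. Of 21 tested, 15 were higher in run 1 by 0.5 or more on the log2 scale. Fabp1 was at 86 FPKM in run 1 and at 3.21 FPKM in run 2, against 1.93 and 2.96 FPKM in knockout colon. The list median was 0.57 with both runs and -0.15 in run 2 alone, so no direction is given for it. None of 13 genes of transmembrane and gastric mucins and Brunner gland type was called, with a replicate block Muc4 was lower (adjusted p = 0.0409), and without the doubted run 1 libraries 1 gene was lower.

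The difference between the tumour change in colon and the tumour change in duodenum was tested as an interaction, with 2 duodenal tumours and 2 knockout duodenum specimens. It shares the colon tumour and both colon specimens with the comparison above, and animal numbers overlap across tissues. Of 14098 genes, 388 differed (2.75%): 233 had a more positive change in colon (1.65%) and 155 a more negative one (1.10%).

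Several genes on the positive side were already high in duodenum. Lyz1 was at 1711 and 881 FPKM in the duodenal tumours and at 2311 and 2981 FPKM in knockout duodenum, against 780 and 717 FPKM and 10.1 and 11.2 FPKM in the colon tumour and colon (difference 7.13, SE 1.24, adjusted p = 0.015). Mmp7 was at 115 and 71.6 FPKM in the duodenal tumours against 75.2 and 122 FPKM in duodenum (6.78, SE 0.98, adjusted p = 0.00656). Rnase1 and AI747448 showed the same arrangement. Arg1 was low in all duodenal specimens, at 3.81 and 1.83 FPKM in tumours and 1.16 and 0.947 FPKM in duodenum, against 48.7 and 44.8 FPKM in the colon tumour (4.33, SE 0.61, adjusted p = 0.00611). Aldh1a3 also rose more in colon (4.60). Of 20 metalloproteinase and inhibitor genes, 5 had a more positive change in colon, as did 4 of 13 neutrophil genes. Of 19 acute-phase genes, 4 had a more positive change and 1 a more negative one. Of 22 regenerative genes, 1 was more positive and 2 were more negative. Of all tested genes, 1.65% had a more positive change in colon and 1.10% a more negative one. The neutrophil and acute-phase lists share S100a8 and S100a9, so their counts are not separate.

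The most negative differences were of Anxa10 and Ctse, gastric genes that were high in duodenal tumours. Anxa10, an annexin of gastric epithelium, was at 207 and 391 FPKM in the duodenal tumours against 0.668 and 0.525 FPKM in duodenum, and at 3.05 and 0.176 FPKM in the runs of the colon tumour (-6.42, SE 1.41, adjusted p = 0.0329). Ctse (cathepsin E) was at 168 and 263 FPKM against 1.98 and 1.77 FPKM in duodenum, and at 60.6 and 57.3 FPKM against 22.9 and 31.5 FPKM in colon (-5.10, SE 0.90, adjusted p = 0.0158). Sprr2a1 and Sprr2a2, which share exons, moved in opposite directions in the tissues, with differences of -4.24 and -4.17. B4galnt2 was as high in duodenal tumours as in duodenum, at 167 and 249 FPKM against 194 and 218 FPKM (-4.15, SE 0.99, adjusted p = 0.046, and 0.0508 with a replicate block). Anxa1 was higher in tumours of both tissues and rose more in duodenum, from 6.66 and 8.21 FPKM to 107 and 163 FPKM (-2.14, SE 0.29, adjusted p = 0.00412). Of the 12 named genes 4 stayed called without knockout colon 1, and 9 without knockout colon 2.

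**Figure D4:**
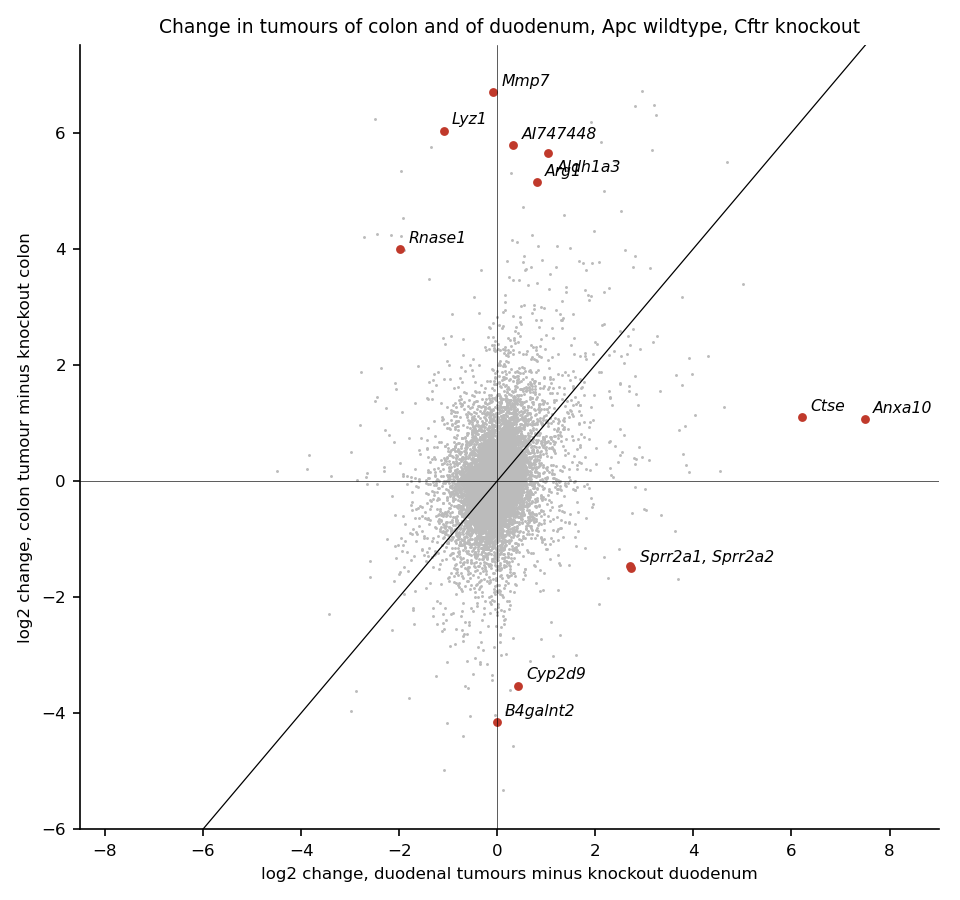
Each point is a gene, placed by its log2 change in duodenal tumours against duodenum (horizontal) and in the colon tumour against colon (vertical), with the 12 named genes marked. Mmp7 and Lyz1 lie at the top, Mmp7 near no duodenal change and Lyz1 to its left, and Anxa10 and Ctse lie far to the right.

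The tumour was also set against 2 knockout colon tumours of ApcMin mice, a strain known for a truncating Apc allele and intestinal adenomas. Both ApcMin tumours carry 1 animal number and were read in run 2, so run 2 of the Apc-wildtype tumour was used. Xist, the noncoding RNA that silences 1 X chromosome in female cells, was at 55.6 and 46.4 FPKM in the ApcMin tumours and at 0.0797 FPKM in the Apc-wildtype tumour. Sex, animal and Apc genotype therefore cannot be told apart here. Of 14098 genes, 491 differed (3.48%), 441 higher in the Apc-wildtype tumour (3.13%) and 50 lower (0.355%). When the spread was taken from the 3 tumours alone, limma called 0 genes (smallest adjusted p 0.18), with 1713 at an unadjusted p under 0.05.

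The 6 named genes on the higher side were Wisp2, Cpxm1, Hp, Cd79a, Cd79b and Cdkn2a. Wisp2, a matrix-associated CCN family protein, was at 17.6 FPKM in the Apc-wildtype tumour and at 0.57 and 0.334 FPKM in the ApcMin tumours (3.69, SE 0.16, adjusted p = 1.89e-06). Cpxm1, a secreted carboxypeptidase-like protein, was at 24.3 FPKM against 1.36 and 0.82 FPKM (3.61, SE 0.52, adjusted p = 0.00624). Hp, given above, was at 231 FPKM against 22 and 18.3 FPKM (3.46, SE 0.59, adjusted p = 0.013). Cd79a and Cd79b, the signalling chains of the B cell receptor, were at 28.4 and 24.7 FPKM against at most 2.2 FPKM. They were the 2 called of 13 B and plasma cell genes, and neither was called with either ApcMin tumour left out. Cdkn2a, which encodes the cell cycle inhibitors p16 and p19, was at 14.1 FPKM against 1.3 and 0.403 FPKM (3.07, SE 0.71, adjusted p = 0.0421), and knockout colon held 0.0809 and 0.164 FPKM. Of 25 fibroblast and matrix genes 11 were higher, Dcn among them at 382 FPKM against 107 and 89.3 FPKM. Macrophage genes gave 8 of 17 higher, and of all tested genes 3.13% were higher. Sfrp1 was at 50.3 FPKM against 10.9 and 7.93 FPKM, so that the ApcMin tumours lay near the level of knockout colon.

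Other genes that separated tumour from colon were high in all 3 tumours. Mmp7 was at 216 FPKM in the Apc-wildtype tumour and at 159 and 179 FPKM in the ApcMin tumours (0.36, SE 0.64, adjusted p = 0.821). Mmp10 was at 158 FPKM against 73.2 and 52.9 FPKM (1.33, SE 0.52, adjusted p = 0.239). A p that misses the threshold does not show that the tumours were alike.

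The lower side held small-intestinal and erythroid genes. Apoa1, an enterocyte apolipoprotein, was at 5.21 FPKM in run 2 of the Apc-wildtype tumour against 289 and 98.2 FPKM in the ApcMin tumours (-4.78, SE 1.05, adjusted p = 0.0338), but its run 1 library held 101 FPKM. Apoa4, Gm14851, AY761184 and Prap1 were also higher in run 1 than in run 2, as for the small-intestinal genes above. Of 21 small-intestinal enterocyte genes 9 were lower, against 0.355% of all tested genes. Hbb-b1, a haemoglobin chain, was at 2.22 FPKM against 54 and 29.7 FPKM (-4.13, SE 0.74, adjusted p = 0.0156). Of the 12 named genes 6 stayed called without ApcMin tumour 1 and 7 without ApcMin tumour 2.

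**Figure D5:**
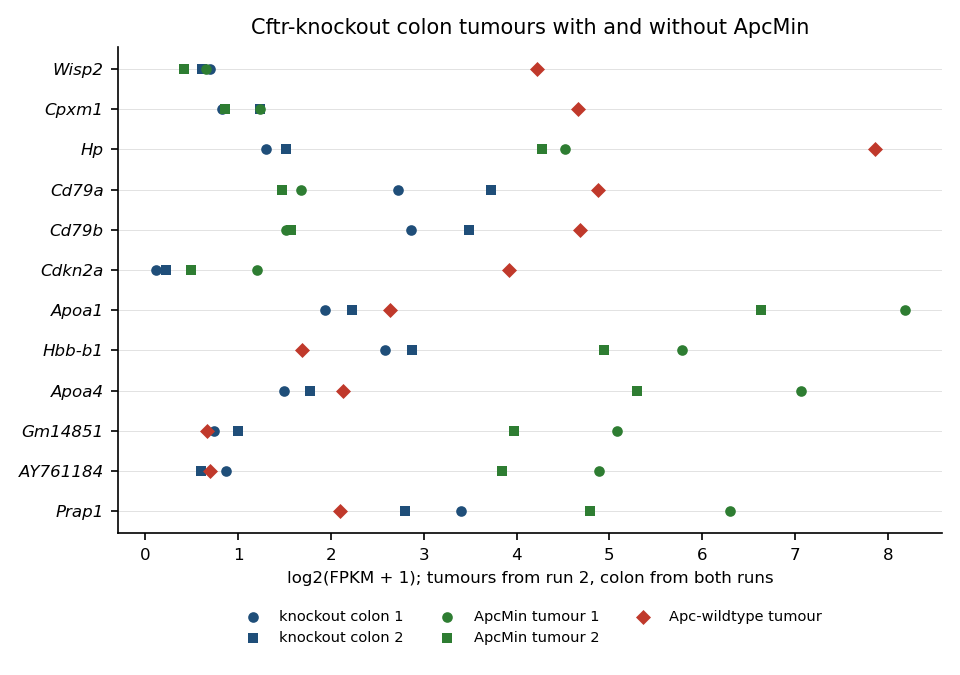
Expression as log2(FPKM + 1) of the 12 named genes of this comparison in knockout colon 1 and 2, ApcMin colon tumours 1 and 2 and run 2 of the Apc-wildtype tumour. Wisp2 reaches 17.6 FPKM in the Apc-wildtype tumour alone, and Apoa1 is highest in the ApcMin tumours (289 and 98.2 FPKM).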

How the data were processed

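RNA-seq of mouse colon, duodenum and tumours was deposited as 1 table of 23356 genes and 68 columns in FPKM. The authors computed the FPKM values with Cuffnorm after TopHat2 2.0.13 alignment to mm10, per the submitters' processing notes, which also name FastQC. Libraries were polyA-selected from RNAlater-preserved tissue, per the labels' protocols. The table holds no counts, so the absolute depth is unknown and no counting interval is given. FPKM sums of the 12 compared columns ran from 497707 to 612385.

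Lanes and runs of 1 specimen were averaged on log2(FPKM + 1), which understates fold changes of low genes. Tests covered the 14098 genes that reached 1 FPKM in 2 or more of 23 specimens. limma 3.58.1 (R 4.3.3) fitted 22 samples in 12 groups, with Benjamini-Hochberg adjustment over all tested genes and a threshold of 0.05. The wildtype duodenum specimens were counted as 1 sample. Replicates carried separate animal numbers in the Apc-wildtype groups and 1 shared number in each of the 6 ApcMin groups, and p-values measure the spread between these specimens. On simulated data for the colon comparison over 14098 genes, 71 of 100 2-fold and 99 of 100 4-fold changes were recovered. In the same simulation 11 unchanged genes were called. The changed genes were drawn from the more highly expressed genes alone, so recovery for low genes was not tested. The simulated tumour was given the pooled spread. These counts therefore cannot check the assumption that the real tumour varies like the other groups.

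Animal numbers come from the labels, and equal numbers across tissues were taken as the same animal, although the design text speaks of 23 mice and the labels hold 10 numbers. A replicate block on the animal number was an alternative. The consensus correlation within animals was -0.177, and -0.132 in the comparison with ApcMin tumours. Calls gained with the block rest on these negative correlations. Other alternatives changed the pseudocount, filter, normalisation, runs, pooled groups and normal tissue, or left out specimens. The comparison, the 44 gene lists and the rules were chosen with earlier results of these data known. Genes were named as the 15 largest rises and falls (6 each way in the other comparisons) among called genes at 5 FPKM or more in the higher group, lying outside both colon specimens in each run for the colon comparison. Up to 5 members per list with the smallest p were added. Some genes belong to several lists, so the counts of the lists are not separate. Examples are Il11 (cytokines and Wnt targets), Atoh1 (goblet and Notch lists) and Grem1 (fibroblast and BMP lists). Spreadsheet software had turned 27 gene names into dates, of which 21 were tested unnamed. Promoters of called genes were searched for 4 motif spellings, with results in view, and all 4 are reported.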

Additional observations from a re-analysis of the deposited data

Results flagged for a closer look

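By limma's interaction test, the 12 genes with the largest differences under the naming rule, 6 each way, were called as changing differently in colon and duodenum. The change was more positive in colon for Lyz1 (7.13), Mmp7 (6.78), Rnase1 (5.97), AI747448 (5.46), Aldh1a3 (4.60) and Arg1 (4.33), as differences of log2 changes. It was more negative in colon for Anxa10 (-6.42), Ctse (-5.10), Sprr2a1 (-4.24), Sprr2a2 (-4.17), B4galnt2 (-4.15) and Cyp2d9 (-3.95). The adjusted p values of these 12 lay between 0.00611 and 0.046. Without knockout colon 1 the call was lost for Lyz1, Rnase1, AI747448, Aldh1a3, Anxa10, Ctse, B4galnt2 and Cyp2d9. B4galnt2 and Cyp2d9 also lost it without knockout colon 2, either duodenum specimen or either duodenal tumour. Anxa10 lost it in each of these cases except without duodenal tumour 1. The colon side rests on 1 tumour, and the run 1 and run 2 libraries of that tumour held 3.05 and 0.176 FPKM of Anxa10.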

How the results depend on the processing

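The 30 genes named between tumour and colon were recomputed under 14 alternatives: 384 values kept direction and call, 36 lost the call, and 0 changed direction. The naming rule put the tumour outside both colon specimens in each run. Leaving out a colon specimen or a run therefore could not reverse a direction. The count of 1820 genes was 927 with the spread taken from colon specimens alone, 3242 from Apc-wildtype specimens alone, and 719 to 773 with a colon specimen left out. The share higher was 55.7% in the main setting, 67.9% with colon alone, 67.4% and 67.7% without knockout colon 1 and 2. The 388 interaction calls became 589 with no filter, 785 in run 1 alone, 695 with the compared groups alone, 1322 with Apc-wildtype specimens alone and 739 with wildtype duodenum as 2 specimens. They ran from 63 to 554 with 1 specimen left out, and the share higher went from 60.1% to 49.2% in run 1, 49.5% with the compared groups, 46.0% with Apc-wildtype specimens and 75.8% without knockout duodenum 2. The 491 calls against ApcMin tumours became 0 with the compared groups alone and 126 to 403 with 1 tumour left out, where the share higher of 89.8% reached 77.8%. With a replicate block on the animal number the 3 counts were 2445, 314 and 625. Among the 229 gene values of the text's genes and lists the pairing added 13 calls and removed 1. List medians that changed sign were the median of Anion secretion and partners (0.07 to -0.0214 in run 2, -0.1412 without knockout colon 1 but 0.0905 without 2, -0.0348 against all 4 normal colon specimens), small-intestinal enterocyte (0.57 to -0.15 in run 2, -0.1757 without the doubted run 1 libraries) and the median of Colon and segment identity (0.16 to -0.0356 with quantile normalisation, -0.0795 in run 2, -0.1921 without knockout colon 1 but 0.2101 without 2, -0.0824 against all 4 normal specimens, -0.1026 without the doubted libraries). The cause was not tested. Calls gained with the replicate block rest on a negative correlation within animals. Leaving out the doubted run 1 libraries was chosen after seeing the data. The depth is unknown, and 1 tumour limits the precision.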

Other observations

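Of 24 BMP and TGF-beta genes 5 rose (20.8%, against 7.19% of all genes) and 2 fell (8.33%, against 5.72%). Inhba, a subunit of activin A, was at 10.5 and 10.4 FPKM in the tumour's runs against 0.584 and 0.535 FPKM in knockout colon (2.88, SE 0.60, adjusted p = 0.0103). Grem1, a secreted BMP antagonist, was at 84.1 and 90.3 FPKM against 28.8 and 26 FPKM (1.64, SE 0.33, adjusted p = 0.00944). Inhbb, Bmp1 and Tgfb1 also rose. Inhba and Grem1 are also counted among the fibroblast and matrix genes above, and Tgfb1 among the cytokines. Nog, another BMP antagonist, was at 0.261 and 0.237 FPKM against 1.24 and 0.879 FPKM (-0.71, SE 0.14, adjusted p = 0.00791), and Smad6 also fell. Without knockout colon 1 the falls numbered 1. Of 13 Notch and secretory lineage genes, Atoh1 and Gfi1 fell (15.4%). The list had 1 fall with either colon specimen left out, and 3 rises with a replicate block. Of 22 glycolysis and hypoxia genes 1 rose (4.55%, below the share of all genes). It was Slc16a3, the lactate exporter MCT4, from 3.39 and 6.39 FPKM to 16.3 and 15.6 FPKM. The list had 0 rises without knockout colon 1, 2 without knockout colon 2, and 2 falls with a replicate block. No gene was called among 3 pancreatic acinar, 5 erythroid and 4 skeletal muscle genes, and 1 skeletal muscle gene was called higher with a replicate block.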
